A study of Mus musculus with 15 samples.

Results

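Foxp3 and 7 genes for proteins that act with it were followed across all 15 libraries of the study, which holds 29989 tested genes. The members, taken by gene identifier, were Foxp3, Ikzf2 (Helios), Ikzf4 (Eos), Runx1, Runx3, Cbfb, Foxp1 and Ets1, and all 8 were above 0 in every library. The cells were regulatory T (Treg) cells, sorted as CD25+CD39+ cells from the lymph nodes and spleens of C57BL/6 females. These mice were Dock8flox/flox and heterozygous for Foxp3YFP-Cre, in which Foxp3, an X-linked gene, also drives YFP and Cre. A female cell keeps 1 X chromosome active, so YFP+ cells had Cre and were labelled DOCK8 deficient (KO here), while YFP- cells of the same kind of mouse were labelled WT. Floxed Dock8 is thus shared by all groups. The groups were KO with anti-CD3+CD28 beads (n = 2), WT with beads (n = 3), KO without beads (n = 6) and WT without beads (n = 4), each cultured overnight, for 16 h in the study's design text, with 1 bead per cell where beads were used. The beads engage the T cell receptor and CD28. Ages are not stated. The samples are called independent, with no word on whether they came from separate mice, so a p-value reflects the variation among these libraries and no more.

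Foxp3 is the forkhead transcription factor that gives Treg cells their identity, and its loss causes fatal autoimmunity in mice and humans. It binds DNA together with other factors. The RUNX proteins Runx1 and Runx3 bind DNA with the non-DNA-binding subunit Cbfb, and RUNX-CBFb complexes keep the Foxp3 gene active. Ets1 binds the Foxp3 locus and interacts with Foxp3. Foxp1 is a forkhead relative that can pair with Foxp3 and supports its chromatin binding. Helios and Eos are zinc-finger proteins of the Ikaros family. Eos acts as a corepressor with Foxp3, and Helios helps to keep Treg cells stable. The Foxp3 gene itself responds to T cell receptor, CD28 and IL-2 receptor signals.

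The design bears on Foxp3 in particular. KO cells were sorted as YFP+, so they used the modified Foxp3 allele. WT cells were sorted as YFP-, so those that transcribed Foxp3 used the unmodified one. The YFP+ gate itself selects cells that express Foxp3, and the YFP- gate does not. The allele in use, the gate and DOCK8 deficiency thus cannot be told apart in any KO against WT value of Foxp3. How reads from the modified allele were counted is not stated, which limits what the KO values of Foxp3 mean. Foxp3 (ENSMUSG00000039521) lies at chrX:7573644-7595245 on the plus strand of mm10. Its annotated exons, 4577 bases in all, share 590 bases with Ccdc22 and 266 with Ppp1r3f on the opposite strand, and 853 bases with the noncoding gene Flicr on its own strand. The library kit is not stated to mark strand, so reads in those bases cannot be assigned with certainty.

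The sequences just before the annotated starts of Foxp3 and Runx1 are shown because these were the members with the largest KO against WT differences without beads. The stretches come from RefSeq on GRCm38.p6, run 5′ to 3′ on the gene's strand, and end at the start or at the first annotated exon of the gene. Capitals mark letters that match 1 of 5 core motifs searched on both strands. These were TGTTTAC and TGTTTGC (forkhead), TGTGGT (RUNX), CCGGAA (ETS) and TGGGAA (Ikaros).
Foxp3, chrX:7579426-7579566, plus strand: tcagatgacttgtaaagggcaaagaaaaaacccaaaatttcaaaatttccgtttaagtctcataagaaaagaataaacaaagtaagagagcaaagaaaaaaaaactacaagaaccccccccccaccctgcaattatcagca
Foxp3, chrX:7580233-7580482, plus strand: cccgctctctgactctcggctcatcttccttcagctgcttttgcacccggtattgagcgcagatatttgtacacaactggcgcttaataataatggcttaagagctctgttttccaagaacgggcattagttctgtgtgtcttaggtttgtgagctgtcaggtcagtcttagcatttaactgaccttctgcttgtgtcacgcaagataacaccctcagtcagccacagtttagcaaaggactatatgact
Runx1, chr16:92826150-92826324, minus strand: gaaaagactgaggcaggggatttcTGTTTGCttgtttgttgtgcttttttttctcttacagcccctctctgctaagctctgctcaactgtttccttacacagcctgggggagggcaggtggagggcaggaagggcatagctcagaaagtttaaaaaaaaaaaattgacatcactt
Runx1, chr16:92697330-92697579, minus strand: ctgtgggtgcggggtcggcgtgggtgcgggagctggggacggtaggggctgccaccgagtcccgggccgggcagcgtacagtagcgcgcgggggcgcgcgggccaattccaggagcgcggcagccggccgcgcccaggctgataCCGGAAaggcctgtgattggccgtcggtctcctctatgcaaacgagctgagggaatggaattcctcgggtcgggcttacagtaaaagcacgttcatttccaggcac
The search covered 300 bases, from 250 before to 50 after each start, and 5 of the 8 members had windows in the RefSeq table, 10 windows in all. Neither Foxp3 stretch shown holds a match, and the search window of the first start holds 1 Ikaros core, 3 bases after the start. The first Runx1 window holds TGTTTGC 226 bases before the start and a pair of RUNX cores after it, and the second holds CCGGAA 106 bases before the start. Runx3 has RUNX cores 134 and 126 bases before a start, and TGTTTGC lies 96 bases before the start of Cbfb and 167 before a start of Foxp1. In all 32851 windows of the table, TGTTTAC was present in 3.65%, TGTTTGC in 5.07%, CCGGAA in 14.9%, TGTGGT in 16.8% and TGGGAA in 25.6%. A match is only a run of letters and was not tested as a binding site.

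Values are deposited as TPM, which are shares of a library adjusted for transcript length. They hold no information on sequencing depth, which is therefore unknown. The listed TPM summed to between 819697 and 938139 per library. A set of 11 repeat-derived predicted genes took 12.2 to 18.8% of TPM in KO and 7.89 to 14.2% in WT libraries with beads, and 25.3 to 49.0% in KO and 15.02 to 35.2% in WT libraries without beads. The 9 T cell markers summed to 2085 to 2272 TPM in KO and 1734 to 2096 TPM in WT with beads, and to 596 to 1063 TPM in KO and 978 to 1923 TPM in WT without beads. All 6 Treg markers and all 9 T cell markers were above 0 in every library. Markers of CD8 T and NK cells summed to at most 71.2 TPM, of B cells to at most 33.8 TPM and of myeloid cells to at most 32.4 TPM in any library. Those of stromal and endothelial cells summed to at most 69.2 TPM, with Pecam1 alone at up to 53.6 TPM, and of erythroid cells to at most 28.0 TPM. Dock8 stood at 8.58 ± 1.85 TPM in KO and 14.6 ± 5.35 TPM in WT cells without beads (SD, n = 6 and 4; exact two-sided permutation p = 0.0190), and at 6.86 ± 1.47 against 9.25 ± 0.763 TPM with beads (n = 2 and 3; exact p = 0.1, the smallest possible). Differences below are on the log2(TPM + 1) scale with SE from limma, and adjusted p-values are limma's, by the Benjamini-Hochberg method over all 29989 genes. A gene is called at an adjusted p under 0.05. Limma called Dock8 in neither treatment. Without beads its log2 difference was -0.67 (adjusted p = 0.3685), and its KO and WT ranges overlapped. After scaling to 815 abundant genes it stood at 10.3 ± 2.09 in KO and 13.1 ± 3.17 in WT without beads (SD).

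Without beads, the Foxp3 transcript took a smaller share of the library in every KO library than in any WT library. The 6 KO libraries ran from 6.29 TPM through a median of 11.9 to 26.0 TPM, and the 4 WT libraries stood at 50.7, 41.1, 29.3 and 51.6 TPM. The highest KO library, the one without a number in its title, thus lay just under the lowest WT library. Means were 13.3 ± 6.77 TPM in KO and 43.2 ± 10.4 TPM in WT (SD, n = 6 and 4). The log2 difference was -1.71 (SE 0.31), with a 95% interval of -2.38 to -1.05, and its adjusted p of 0.0646 missed the threshold. Across 21 alternatives, adjusted p ran from 0.00988 to 0.387, and 3 of them called Foxp3 lower. The highest was for the fit without the 4 KO libraries with more than 35% repeat-derived TPM. Foxp3 was called without the unnumbered KO library (adjusted p = 0.00988), without both unnumbered libraries (0.0367) and when the test was limited to genes averaging 20 TPM or more in some group (0.0303). In bulk samples, fewer cells that transcribe a gene and less RNA per cell cannot be told apart.

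The lower values in KO cells came with a general shift of abundant genes in the same direction. The median log2 difference was -0.11 over all genes tested and -0.44 over the 5937 abundant genes, those averaging 20 TPM or more in some group. For the 187 of these on the X chromosome it was -0.42. Scaled to 815 abundant genes, which moved the median of abundant genes to -0.093 and that of the X-linked ones to -0.054, Foxp3 still differed by -1.36 (adjusted p = 0.140). Scaled Foxp3 values were 7.58 to 24.8 in KO and 33.0 to 46.0 in WT libraries, again without overlap. Relative to the summed T cell markers of the same library, log2 Foxp3 averaged -5.86 in KO and -5.05 in WT, and these ranges did not overlap either. The share of all genes without overlap was not computed for scaled values or for such a ratio. Without the 4 KO libraries richest in repeat-derived TPM, the Foxp3 difference was -1.09 (adjusted p = 0.387), smaller by over 1.5 times. That cut was applied to KO libraries only. It kept WT library 2, which had 35.2% repeat-derived TPM and the lowest WT Foxp3 value, and the KO library with the highest KO value. The part of the T cell marker level in the Foxp3 difference was not tested beyond these values.

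Of 15 protein-coding neighbours within 200 kb of Foxp3, 14 were listed, and 10 had a lower mean in KO than in WT cells without beads. KO and WT ranges overlapped for all 14, in a comparison where 1.56% of all genes did not overlap. Ccdc22, which shares exon bases with Foxp3, had 3.02 ± 2.83 TPM in KO and 8.65 ± 3.77 TPM in WT cells. Prickle3 had 6.20 ± 3.78 against 15.99 ± 4.85 TPM, and Ppp1r3f 21.4 ± 14.7 against 24.2 ± 13.4 TPM (SD, n = 6 and 4). Flicr, the noncoding gene that overlaps Foxp3 on the same strand, averaged 6.96 TPM in KO and 6.97 TPM in WT cells. With beads, 6 of the 14 neighbours had a lower mean in KO than in WT cells, and 5 had ranges that did not overlap, beside 25.5% of all genes in groups of 2 and 3.

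Among the partners, Runx1 differed most from WT without beads. Runx1 (ENSMUSG00000022952, chr16:92601466-92826149, minus strand) had a lowest, median and highest KO value of 3.43, 5.15 and 13.4 TPM, against 20.2, 10.3, 12.4 and 17.7 TPM in the 4 WT libraries. KO library 3 alone reached into the WT range. The log2 difference was -1.20 (SE 0.38, adjusted p = 0.254; 95% interval -2.01 to -0.39), and -0.87 after scaling to abundant genes. Its partner subunit Cbfb (ENSMUSG00000031885, chr8:105170674-105217989, plus strand) varied more within groups than between them. Cbfb ran from 0.655 through a median of 8.81 to 13.9 TPM in KO libraries and stood at 12.97, 10.3, 1.45 and 15.8 TPM in WT libraries (log2 difference -0.30, 95% interval -1.63 to 1.04). Runx3 (ENSMUSG00000070691, chr4:135120652-135177990, plus strand), best known for silencing Cd4 in CD8 T cells, averaged 8.14 ± 5.25 TPM in KO and 8.07 ± 3.49 TPM in WT cells. Its log2 difference of -0.13 had a 95% interval of -1.08 to 0.81.

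The Ikaros members varied widely among the KO libraries, and the KO and WT ranges overlapped for both. Ikzf2 (ENSMUSG00000025997, chr1:69531214-69687245, minus strand) averaged 20.5 ± 9.27 TPM in KO and 21.9 ± 6.78 TPM in WT cells (log2 difference -0.15, 95% interval -0.86 to 0.55). Ikzf4 (ENSMUSG00000002578, chr10:128630843-128645991, minus strand) averaged 37.5 ± 23.7 TPM in KO and 47.1 ± 13.6 TPM in WT cells (log2 difference -0.46, interval -1.26 to 0.34). KO library 4, which held the lowest Foxp3 value, held the highest Ikzf4 value, 83.1 TPM, and the highest Ikzf2 value of the KO libraries, 35.1 TPM. The sign of the small Ikzf2, Runx3 and Cbfb differences turned with scaling to abundant genes, to 0.21, 0.19 and 0.031.

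Foxp1 was the single member with a positive log2 difference between KO and WT cells without beads. Foxp1 (ENSMUSG00000030067, chr6:98925338-99522721, minus strand) ran from 56.9 through a median of 76.3 to 102.2 TPM in KO libraries and stood at 74.5, 73.2, 48.7 and 72.3 TPM in WT libraries. The deposited ranges overlap (log2 difference 0.20, SE 0.28, adjusted p = 0.862). After scaling to abundant genes the ranges were 81.4 to 105.3 in KO and 54.8 to 67.4 in WT and did not overlap (log2 difference 0.57, limma unadjusted p = 0.0283, adjusted p = 0.444). The share of all genes without overlap was not computed after this scaling. Ets1 (ENSMUSG00000032035, chr9:32636221-32757820, plus strand) averaged 76.8 ± 23.2 TPM in KO and 111.5 ± 43.9 TPM in WT (log2 difference -0.50, interval -1.11 to 0.10), and -0.13 after scaling.

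In limma, none of the 8 members was called between KO and WT without beads, where 0.0734% of all genes were called. Foxp3 and Runx1 had unadjusted p under 0.05. Foxp3 was the 1 member of 8 whose groups did not overlap, against 1.56% of all genes. The median log2 difference of the members was -0.38, beside -0.11 over all genes and -0.44 over abundant ones.

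**Figure D1:**
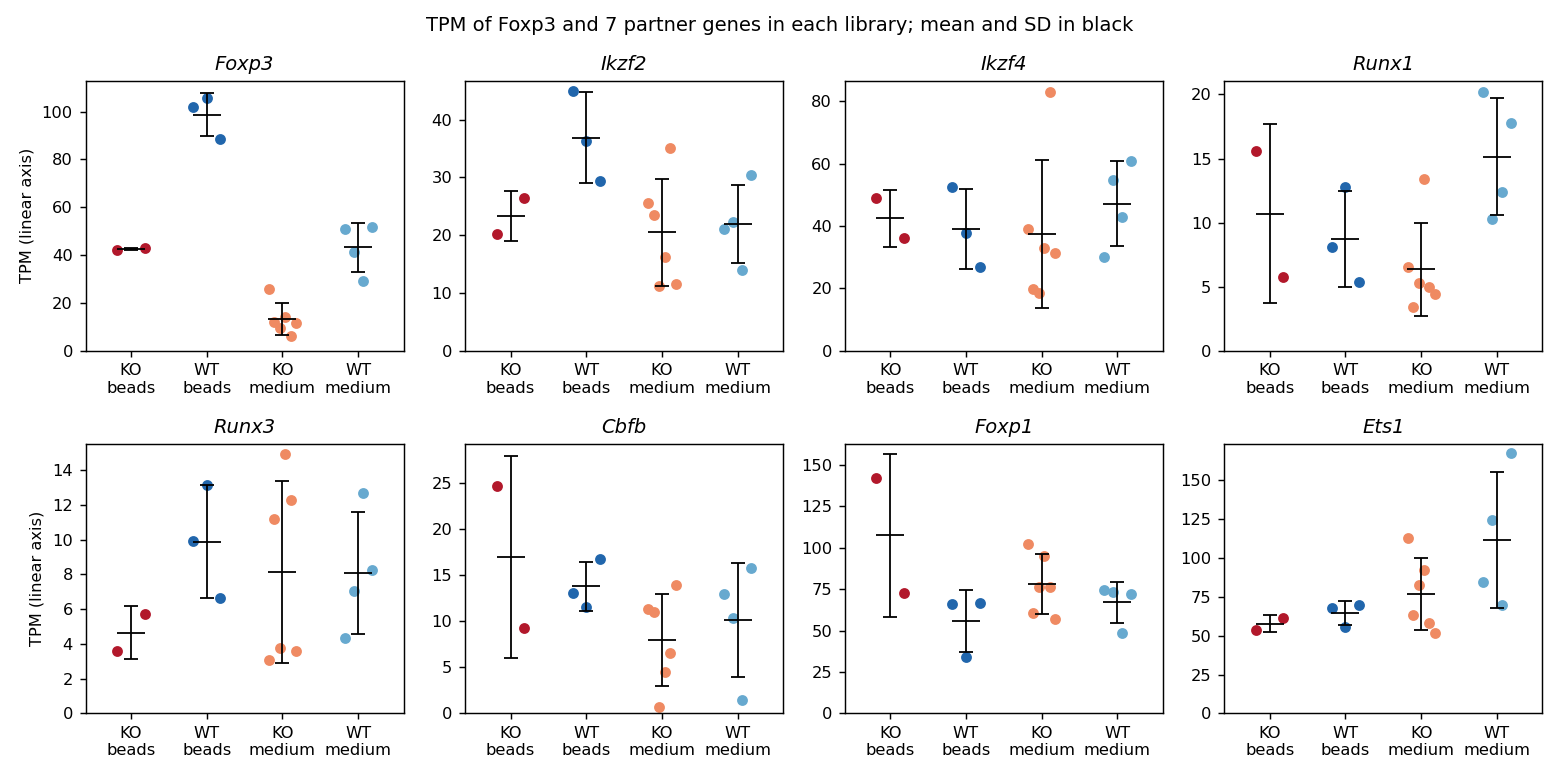
TPM on a linear axis for each of the 8 genes, 1 point per library, in KO and WT cells with beads and in KO and WT cells in medium, with the group mean and SD in black (n = 2, 3, 6 and 4). Foxp3 lies between 88.6 and 105.8 TPM in WT with beads and between 6.29 and 26.0 TPM in KO in medium, while the groups of most partners overlap.

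With beads, the Foxp3 transcript again stood lower in KO than in WT cells, at 42.2 and 42.7 TPM in the 2 KO libraries against 101.7, 105.8 and 88.6 TPM in the 3 WT libraries. Both KO libraries lay below the lowest WT library. The log2 difference of -1.19 (SE 0.44) had a 95% interval of -2.13 to -0.25 and an adjusted p of 1.00, and no alternative called it (adjusted p 0.160 to 1.00 over 16). The T cell marker sum was not lower in these KO libraries, and log2 Foxp3 relative to it averaged -5.65 in KO and -4.30 in WT, without overlap. For this ratio the share of all genes without overlap was not computed. Foxp3 in KO cells with beads was thus at about the level of WT cells without them, 42.5 ± 0.386 against 43.2 ± 10.4 TPM (SD, n = 2 and 4). That pair differs in both genotype and treatment and was not tested.

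A further 3 partners also had groups that did not overlap with beads. Foxp1 was higher in KO, at 142.3 and 72.9 TPM against 66.1, 34.3 and 66.9 TPM in WT (log2 difference 0.92, SE 0.40, adjusted p = 1.00). That value was 0.44 without KO bead library 4, 0.61 without WT bead library 2 and 1.40 without KO bead library 5. Ikzf2 was at 20.2 and 26.4 TPM in KO against 45.0, 36.3 and 29.4 TPM in WT (-0.63, SE 0.47, adjusted p = 1.00). Runx3 was at 3.57 and 5.72 TPM in KO against 9.91, 13.1 and 6.61 TPM in WT (-0.93, SE 0.63, adjusted p = 1.00). With groups this small, 4 of 8 members without overlap stands beside 25.5% of all genes. Limma called none of the 8 members, as it called 0.00333% of all genes, and Foxp3 and Foxp1 had unadjusted p under 0.05. Runx1, Ikzf4, Cbfb and Ets1 overlapped, with differences of 0.19, 0.15, 0.15 and -0.15. The intervals reach from -0.95 to 1.34 for Runx1 and from -1.74 to 2.04 for Cbfb. KO bead library 4 was above both the other KO library and every WT bead library for Runx1 (15.6 TPM), Cbfb (24.7 TPM) and Foxp1.

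Foxp3 was higher with beads than without in both genotypes, and it was the 1 member called in either. Treatment and the set of tables, which list 31785 genes with beads and 36904 without, coincide in every comparison of beads against medium. In KO cells Foxp3 stood at 42.2 and 42.7 TPM with beads, against 6.29 to 26.0 TPM without (log2 difference 1.72, SE 0.40, adjusted p = 0.0137). In WT cells it stood at 101.7, 105.8 and 88.6 TPM with beads, against 50.7, 41.1, 29.3 and 51.6 TPM without (1.20, SE 0.37, adjusted p = 0.0479). Neither pair of groups overlapped. The abundant genes had medians of 0.74 in KO and 0.19 in WT. After scaling to abundant genes, which moved those medians to 0.29 and 0.20, the Foxp3 differences were 1.27 (adjusted p = 0.0262) and 1.21 (adjusted p = 0.0218).

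Both calls rest on few libraries. In KO the call was lost without bead library 4 (adjusted p = 0.131) or 5 (0.155), and without the 4 KO libraries with more than 35% repeat-derived TPM the difference was 1.10 (adjusted p = 0.136). In WT it was lost when any 1 of the 7 libraries was left out (adjusted p 0.0539 to 0.143). In KO cells 1 of 8 members was called, beside 8.11% of all genes, and 1 of 8 had groups without overlap, beside 22.6%. In WT cells 1 of 8 was called, beside 11.2%, and Foxp3 and Ets1 had groups without overlap, beside 29.5%.

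The bead response of Foxp3 did not differ detectably between genotypes. The KO response minus the WT response was 0.52 on the log2 scale, with a 95% interval of -0.63 to 1.67 (adjusted p = 0.999), and 0.058 after scaling to abundant genes. Limma called no member for this difference, as it called 0.00333% of all genes, and no member had an unadjusted p under 0.05. Runx1 had the largest value, 1.40 (SE 0.66, interval -0.011 to 2.80, adjusted p = 0.999). It was 0.75 without KO bead library 4 and 2.04 without KO bead library 5. In KO cells Runx1 was at 15.6 and 5.75 TPM with beads, against a median of 5.15 TPM without. In WT cells it was at 8.06, 12.7 and 5.38 TPM with beads, against 20.2, 10.3, 12.4 and 17.7 TPM without (log2 difference -0.76, SE 0.45, adjusted p = 0.307).

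No partner was called under stimulation in either genotype with the deposited values. Ets1 was at 53.8 and 61.5 TPM in KO cells with beads, against 52.0 to 112.7 TPM without. In WT cells Ets1 was at 67.9, 55.4 and 69.6 TPM with beads, just under the lowest of the WT libraries without, 84.3, 124.3, 69.8 and 167.6 TPM (-0.71, SE 0.34, adjusted p = 0.195). Ikzf2 averaged 36.9 ± 7.83 TPM in WT cells with beads and 21.9 ± 6.78 TPM without (0.75, SE 0.39, adjusted p = 0.241), and median-ratio scaling called this rise (1.36, adjusted p = 0.0284). In KO cells Ikzf2 averaged 23.3 ± 4.36 TPM with beads and 20.5 ± 9.27 TPM without. Cbfb averaged 16.97 ± 10.95 TPM with beads and 8.003 ± 4.98 TPM without in KO cells, and 13.8 ± 2.66 against 10.1 ± 6.20 TPM in WT cells. Ikzf4, Runx3 and Foxp1 had log2 differences between -0.50 and 0.42 in the 2 genotypes, none called.

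**Figure D2:**
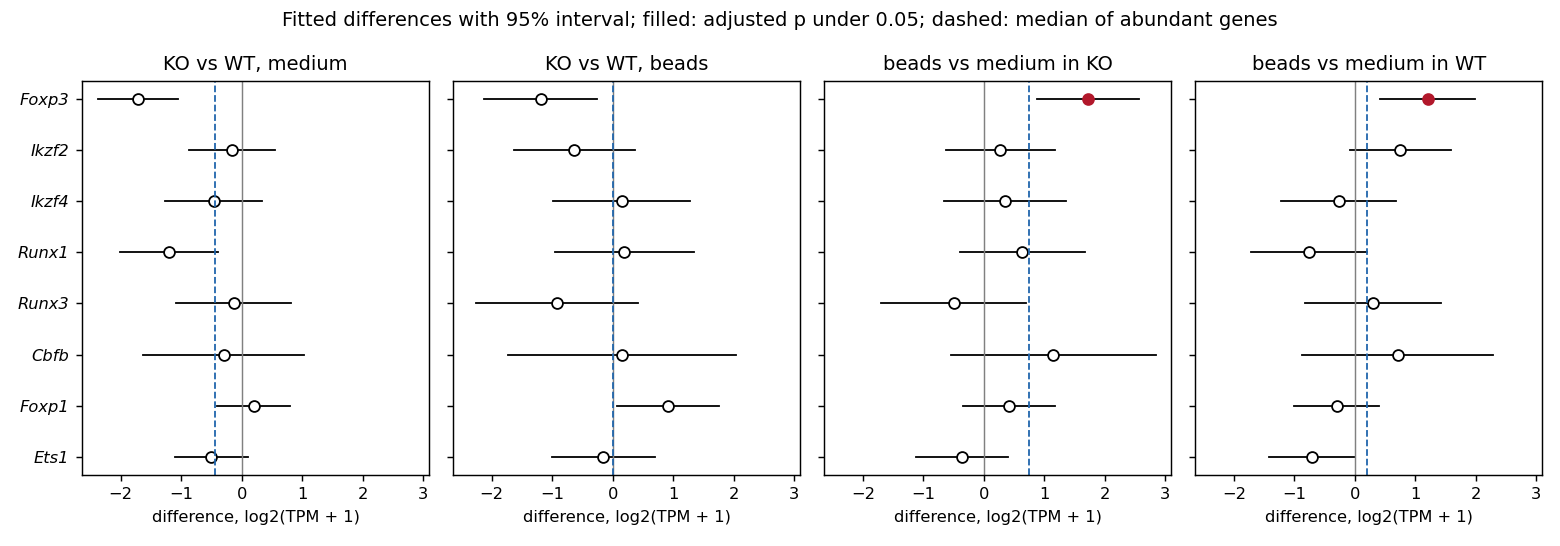
Fitted difference on the log2(TPM + 1) scale with its 95% interval for each of the 8 genes in 4 comparisons, filled where the adjusted p is under 0.05, with the median of 5937 abundant genes dashed. Foxp3 lies at -1.71 and -1.19 for KO against WT and, filled, at 1.72 and 1.20 for beads against medium, and no partner is filled.

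The order of the 8 transcripts by TPM, a length-adjusted level, differed between groups in the place of Foxp3. In WT cells with beads Foxp3 ranked 1 in all 3 libraries, and its range lay above that of Ets1, the next gene. In KO cells with beads Foxp1 ranked 1 in both libraries and Foxp3 ranked 3 or 4, level with Ikzf4. In KO cells without beads Foxp3 ranked 4 to 7, and in WT cells without beads 3 or 4. Without beads, neighbours in the order of means had overlapping ranges throughout in both genotypes. Foxp1 and Ets1 led there, at 77.9 and 76.8 TPM in KO and at 67.1 and 111.5 TPM in WT, and Runx1, Runx3 and Cbfb were the lowest 3 in each group.

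Ratios within a library remove a factor common to all its transcripts, except through the pseudocount of 1, which weighs most on low values. The log2 ratio of Foxp3 to Foxp1 averaged -1.24 ± 0.69 in KO and 0.87 ± 0.64 in WT with beads, and -2.55 ± 0.54 in KO and -0.64 ± 0.15 in WT without (SD, n = 2, 3, 6 and 4). KO and WT ranges did not overlap in either condition. The same held for Foxp3 relative to Ets1 (-0.43 against 0.61 with beads, -2.51 against -1.30 without), to Ikzf2 (0.85 against 1.41, -0.60 against 0.96) and to Ikzf4 (0.015 against 1.36, -1.36 against -0.11). Relative to Runx1, KO and WT overlapped without beads (0.95 against 1.46) and did not with beads (2.04 against 3.42). The same was true relative to Cbfb (0.85 against 2.27 without beads, 1.42 against 2.76 with them). Relative to Runx3 they overlapped in both conditions. These ratios share the Foxp3 value and are 1 observation seen against several partners. Of single genes, 25.5% did not overlap between KO and WT with beads and 1.56% without. No such share was computed for ratios.

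**Figure D3:**
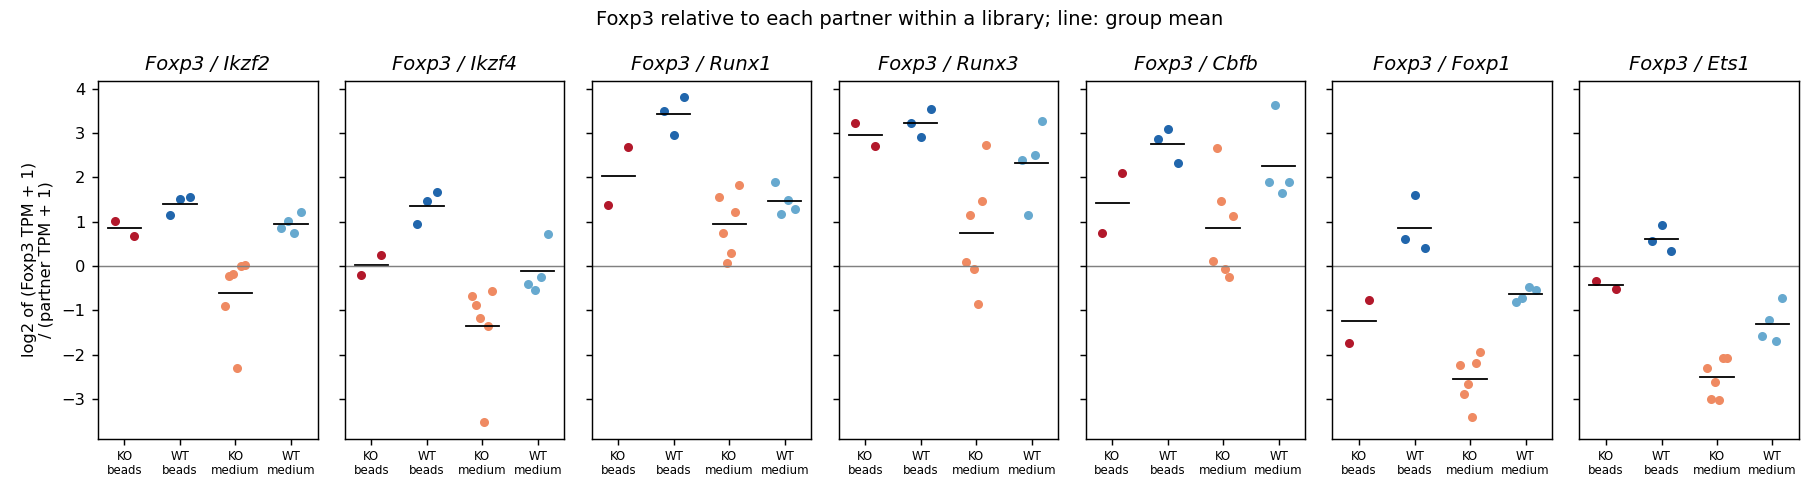
Log2 of (Foxp3 TPM + 1) over (partner TPM + 1) in each library for 7 partners, in KO and WT cells with beads and in KO and WT cells in medium, with group means as lines (n = 2, 3, 6 and 4). Against Foxp1 every KO library in medium lies between -3.40 and -1.94 and every WT library between -0.82 and -0.48.

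The genes whose pattern over the 15 libraries was most like that of Foxp3 were Atpif1, Psmb8, Psmb10, Guk1 and Tspan3. Likeness was the mean absolute difference of centred log2 values, 0.26 for Atpif1, 0.30 for Psmb8, 0.33 for Psmb10 and 0.35 for both Guk1 and Tspan3, beside a median of 0.81 over 3165 genes. Those compared were the protein-coding genes averaging 20 TPM or more over the 15 libraries. Atpif1, which encodes an inhibitor of ATP synthase, averaged 117.4 TPM in KO and 164.3 TPM in WT with beads, and 22.4 TPM in KO and 60.1 TPM in WT without. Psmb8, an immunoproteasome subunit, averaged 272.6 TPM in KO and 562.2 TPM in WT with beads, and 82.6 TPM in KO and 189.7 TPM in WT without. The partners were further from Foxp3, at 0.81 (Ikzf2) to 1.18 (Runx3). Runx1, Runx3 and Cbfb averaged under 20 TPM in every group, so they were not among the 3165 genes. The libraries share the shift of abundant genes described above, which enters this measure.

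Genes around Foxp3 were counted in the same fit, in 5 lists. The relatives of the members in the Ikaros, FOXP, RUNX and ETS families (15 genes) held no called gene in limma between KO and WT without beads, with 1 unadjusted p under 0.05. Their median log2 difference was -0.40. The smallest p belonged to Elf4 (-0.71, adjusted p = 0.390) and Elf1 (-0.70, adjusted p = 0.448), ETS factors of lymphocytes. With beads against medium, no relative was called in KO cells, where 4 had an unadjusted p under 0.05, and Foxp2 was called lower in WT cells. Foxp2, a forkhead factor best known from the brain, averaged 22.8 ± 9.78 TPM in WT cells with beads and 81.3 ± 41.1 TPM without (log2 difference -1.77, SE 0.43, adjusted p = 0.0147).

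Of 25 genes for proteins of the Foxp3 complex, chromatin partners and modifying enzymes, limma called none between KO and WT without beads (2 with unadjusted p under 0.05, median -0.30). Stub1, a ubiquitin ligase that can mark Foxp3 for degradation, averaged 14.98 ± 5.34 TPM in KO and 37.1 ± 13.9 TPM in WT (-1.24, SE 0.29, adjusted p = 0.144). Eed, a subunit of Polycomb repressive complex 2, had a difference of -1.18 (adjusted p = 0.348). With beads against medium, 5 of the 25 were called higher in KO cells, where 8.11% of all genes were called. In WT cells 3 were called higher, where 11.2% of all genes were called, and none was called lower in either. Those shares count both directions. Of the 29989 genes tested, 1785 were called higher and 646 lower in KO, and 1378 higher and 1988 lower in WT. The histone-binding chaperone gene Rbbp7 rose to 168.8 ± 9.59 TPM in KO cells with beads, against 30.1 ± 18.3 TPM without (2.65, adjusted p = 0.00238), and to 214.1 ± 24.1 against 39.7 ± 7.74 TPM in WT (2.41, adjusted p = 0.00279). Hdac7, a histone deacetylase that binds Foxp3, rose by 2.43 in KO (adjusted p = 0.00371) and by 1.38 in WT (adjusted p = 0.0458). Stub1 was called in KO cells (1.77, adjusted p = 0.00788) and had 0.89 in WT cells (adjusted p = 0.116).

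Of 24 factors that act on the Foxp3 gene, none was called in limma between KO and WT without beads (3 with unadjusted p under 0.05, median -0.30). Stat5a, which carries the IL-2 signal to Foxp3, averaged 13.7 ± 5.59 TPM in KO and 24.99 ± 9.33 TPM in WT (-0.84, SE 0.32, adjusted p = 0.336), and Gata3 had -0.95 (adjusted p = 0.338). With beads against medium, 7 of the 24 were called higher in KO cells and 6 in WT cells, and none was called lower. Of all genes, 8.11% were called in the KO and 11.2% in the WT comparison, in either direction. Those called higher numbered 1785 in KO and 1378 in WT, of 29989 tested. Stat5a rose to 64.5 ± 3.72 TPM in KO with beads (2.24, adjusted p = 0.00291) and to 80.1 ± 4.52 TPM in WT (1.71, adjusted p = 0.00901). Irf4, a factor induced by T cell receptor signals, rose to 79.7 ± 9.35 TPM in KO with beads, against 1.33 ± 0.694 TPM without, and to 92.1 ± 1.90 against 1.14 ± 0.777 TPM in WT (5.16 and 5.53, adjusted p = 2.26e-05 and 7.50e-06). The orphan nuclear receptor gene Nr4a1 rose by 4.97 in KO (adjusted p = 0.000124) and 3.14 in WT (adjusted p = 0.00177).

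Genes known to be raised by Foxp3 were the list with the largest shift without beads. Of 25 genes, 23 had a negative KO against WT difference and the median was -1.12, beside -0.44 over abundant genes. The 9 T cell markers moved the same way in these libraries, with mean sums of 781 TPM in KO and 1468 TPM in WT, and the repeat-derived share was higher in KO. Their part in the list's shift was not tested. Limma called 1 gene of the list, Tigit, where 0.0734% of all genes were called. An unadjusted p under 0.05 was reached by 16 of the 25, all lower in KO, and by 3386 of the 29989 genes tested. Tigit, a coinhibitory receptor, averaged 49.3 ± 9.65 TPM in KO and 196.7 ± 29.9 TPM in WT (-1.99, SE 0.22, adjusted p = 0.00218). Il2ra and Entpd1, which encode the sorting markers CD25 and CD39, are on the list and had differences of -0.04 and 0.32. With beads KO against WT, none was called in limma, 3 had an unadjusted p under 0.05, and the median was -0.52. The list also holds Ikzf2 and Ikzf4.

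With beads against medium, 15 of 25 genes of that list were called higher in KO cells and 11 of 25 in WT cells. In both, 1 gene, Nrp1, was called lower. Of all genes, 8.11% were called in KO and 11.2% in WT cells, in either direction, and 1785 and 1378 of 29989 were called higher. Calls were more frequent among abundant genes. With the test limited to those 5937, 2819 were called in KO and 2751 in WT cells. The 5 lists were not counted in that fit. Tnfrsf4 (OX40) rose by 4.90 in KO and 3.61 in WT (adjusted p = 2.71e-05 and 0.000152), and Tnfrsf18 (GITR) by 3.65 and 2.00 (adjusted p = 3.63e-05 and 0.00138). Il2ra rose to 118.4 ± 30.1 TPM in KO with beads, against 11.2 ± 4.43 TPM without, and to 189.7 ± 32.5 against 11.3 ± 3.90 TPM in WT. Nrp1, the semaphorin receptor neuropilin 1, fell by 1.27 in KO (adjusted p = 0.0263) and by 1.99 in WT (adjusted p = 0.00127). Tigit was called in neither genotype.

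Genes known to be lowered by Foxp3 were split in direction without beads, 6 of 13 with a positive and 7 with a negative KO against WT difference. Of the 13, none was called in limma between KO and WT without beads, 1 had an unadjusted p under 0.05, and the median was -0.12. Il7r, the IL-7 receptor chain of resting T cells, averaged 29.5 ± 12.4 TPM in KO and 58.8 ± 18.9 TPM in WT (-1.01, adjusted p = 0.254), and Id3 had -0.61 (adjusted p = 0.516). With beads, 9 of 13 had a positive KO against WT difference and the median was 0.49, beside 0.13 over all genes tested. With beads against medium, 2 were called higher and 2 lower in KO cells, and 2 higher and 3 lower in WT cells, beside 8.11% of all genes called in KO and 11.2% in WT. Il2 rose to 26.8 ± 28.2 TPM in KO with beads, against 1.11 ± 1.19 TPM without, and to 33.1 ± 20.3 against 1.58 ± 0.672 TPM in WT. Il7r fell by 1.74 in KO (adjusted p = 0.0157) and by 3.30 in WT (adjusted p = 0.000172). Il4 was called in WT (5.27, adjusted p = 0.00203) and had 0.91 in KO (adjusted p = 0.636). Id3 was called in KO (1.69, adjusted p = 0.0214) and had -0.69 in WT (adjusted p = 0.284). Between KO and WT with beads, limma called no gene of the 5 lists, and unadjusted p was under 0.05 for 3 of the genes raised by Foxp3, 2 of those lowered by it, 1 of the factors that act on its gene, 0 of the complex and 0 of the relatives.

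**Figure D4:**
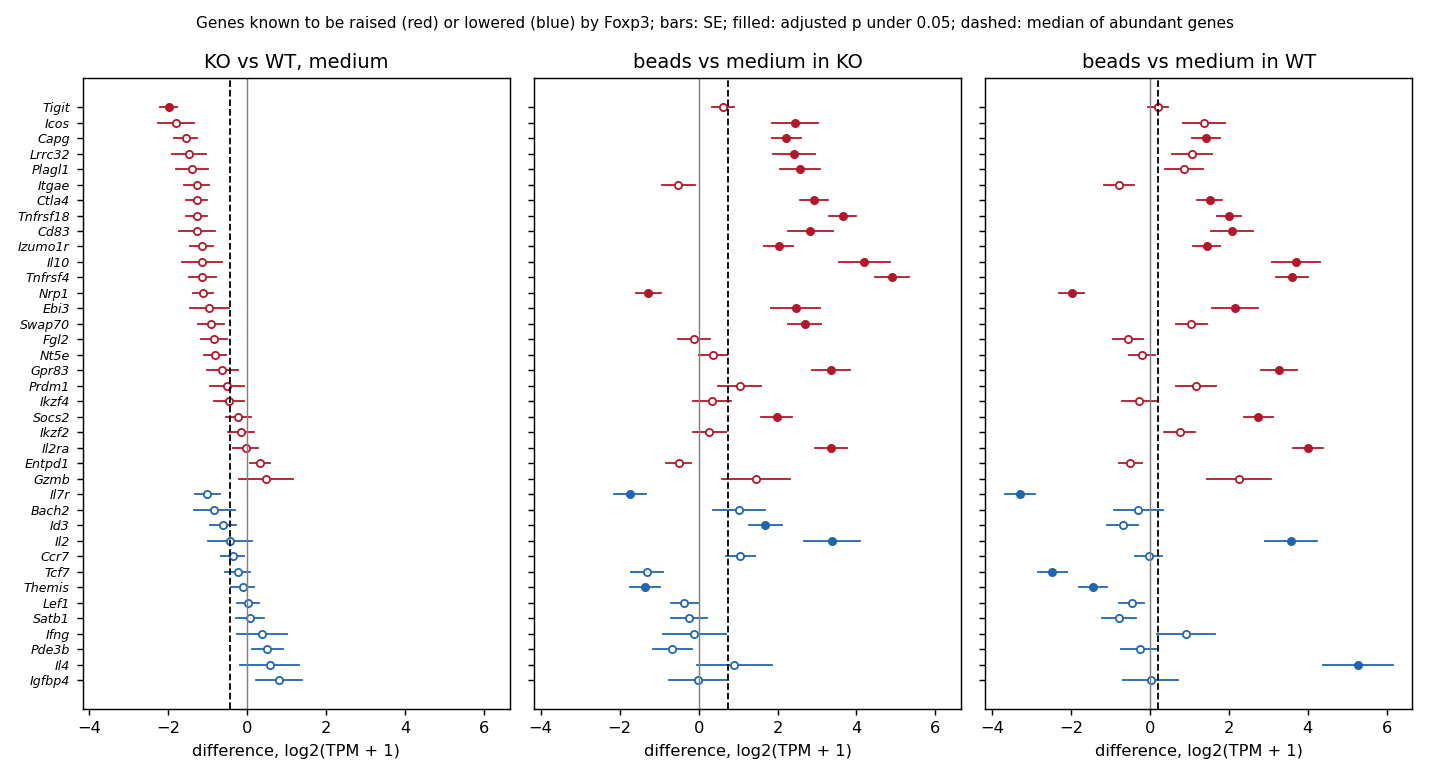
Difference on the log2(TPM + 1) scale with its SE for 25 genes known to be raised (red) and 13 known to be lowered (blue) by Foxp3, filled where the adjusted p is under 0.05, with the median of abundant genes dashed. In the KO against WT panel the red genes have a median of -1.12 and 1, Tigit, is filled, while in the bead panels filled red genes number 16 in KO and 12 in WT.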

How the data were processed

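Smart-Seq2 libraries from sorted Treg cells were sequenced in 15 samples, grouped by the labels' genotype and treatment. For each library the authors deposited a table of Ensembl genes with their TPM. The submitters' processing notes name STAR, Salmon, DESeq2 and mm10, and give no versions or roles. TPM keep no depth, so no count model was fitted and the depth is unknown. The tables without beads list 36904 genes and those with beads 31785. Identifiers were matched to GENCODE vM21 on GRCm38 (mm10), and 30788 of the 30949 genes listed in every table had a symbol.

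A gene was tested where 2 or more libraries reached 1 TPM, which left 29989 genes. The model, in limma 3.58.1 under R 4.3.3, took log2(TPM + 1) with a variance trend and 1 mean for each group of the 15 libraries, leaving 11 residual degrees of freedom. Its 5 contrasts were adjusted by the Benjamini-Hochberg method. The pseudocount makes a log2 difference understate the change of low genes. The fit was tested on simulated data.

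The 8 members and the 5 gene lists were chosen with earlier results of these data known. Named genes were the members, Dock8, up to 4 called genes per list and comparison with the smallest p, or the 2 with the smallest p in KO against WT without beads where none was called, the 5 genes most like Foxp3, and its protein-coding neighbours within 200 kb. Flicr, Il2ra without beads, Nrp1, Entpd1, Tigit in the bead comparisons and genes named in 1 genotype beside the other were added after their values were seen. Alternatives were pseudocounts of 0.1 and 5, no filter, filters of 5 TPM and of a mean of 20 TPM in a group, median-ratio scaling over 15083 genes, scaling to 815 genes that averaged 50 TPM or more in each group, the title number as a block, only the groups compared, and leaving out libraries.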

Additional observations from a re-analysis of the deposited data

Results flagged for a closer look

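In all, 3 member values stood apart from the rest of their group by the gap to the next library relative to the group's range, and chance alone flags about 1 in 20 groups, where 16 were examined. Ikzf4 was at 83.1 TPM in unstimulated KO library 4, and the other KO libraries lay between 18.4 and 39.0 TPM. Runx1 was at 13.4 TPM in unstimulated KO library 3, and the other KO libraries lay between 3.43 and 6.55 TPM. Foxp1 was at 48.7 TPM in unstimulated WT library 2, and the other WT libraries lay between 72.3 and 74.5 TPM. Without the library in question, the KO against WT log2 difference without beads was -0.72 for Ikzf4, against -0.46 with it, -1.42 for Runx1, against -1.20, and 0.054 for Foxp1, against 0.20.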

How the results depend on the processing

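Foxp3 kept its direction under every alternative run in the 4 comparisons of groups. Its KO response minus WT response turned to -0.10 without the 4 unstimulated KO libraries with over 35% repeat-derived TPM. Foxp3 for KO against WT without beads was called among genes of at least 20 TPM and without both unnumbered libraries (-1.71 and -1.83, each making 1 member called). For beads in KO it was no longer called with only the groups compared (1.72, adjusted p = 0.0698) or without those 4 libraries (1.10), each leaving 0 members called, and for beads in WT with pseudocount 0.1 (1.22, adjusted p = 0.0540, 0 members called). Median-ratio scaling called Ikzf2 as well for beads in WT (1.36, 2 members). The cause was not tested.

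Small differences of partners changed sign. Median-ratio scaling turned Ikzf2 (0.017) and Runx3 (0.023) for KO against WT without beads, Ikzf4 (-0.13), Runx1 (-0.062) and Cbfb (-0.12) with beads, Ikzf4 (0.34) and Foxp1 (0.31) for beads in WT, and Ets1 (-0.11) for the difference between responses. Scaling to abundant genes turned Ikzf2 (0.21), Runx3 (0.19) and Cbfb (0.031) without beads, Ikzf2 (-0.19), Ikzf4 (-0.12) and Foxp1 (-0.063) for beads in KO, and Ets1 (-0.13) for the difference between responses, which was also -0.10 without the 4 libraries.

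The labels do not say whether libraries with the same title number came from the same mouse. Deviations from group means had correlations of -0.02 to 0.03 over 8 same-numbered pairs. In groups as small as 2 these deviations are tied to each other, so the values cannot exclude pairing. With the number as a replicate block, Ikzf4 (-0.97), Cbfb (-1.01) and Ets1 (0.35) turned sign for KO against WT with beads, Ikzf4 (-0.28) and Ets1 (0.062) for beads in KO and Cbfb (-0.31) for the difference between responses. The KO and WT bead libraries share no number. Their blocked comparison is thus indirect, by way of the libraries without beads. The replicate block called 1, 0, 922, 2327 and 0 genes in the 5 comparisons, where 22, 1, 2431, 3366 and 1 were called without it.

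Genes called for KO against WT without beads numbered 8 and 13 with pseudocounts of 0.1 and 5, 46 among genes of at least 20 TPM, 6 with median-ratio scaling, 8 with scaling to abundant genes, 11 without the 4 libraries, 43 without the unnumbered libraries and 4 with only the groups compared. With beads they numbered 2 (pseudocount 0.1), 0 (pseudocount 5, genes of at least 20 TPM, scaling to abundant genes), 5 (without the 4 libraries), 2 (without the unnumbered) and 19 (only the groups compared). For beads in KO they numbered 1007 without the 4 libraries and 1315 with only the groups compared. For the difference between responses they numbered 3 (pseudocount 0.1), 0 (pseudocount 5, genes of at least 20 TPM, scaling to abundant genes), 2 (filter of 5 TPM, median-ratio scaling), 4 (without the 4 libraries) and 5 (without the unnumbered).

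With each library left out in turn, called genes ranged over 5 to 67, 0 to 3, 382 to 2715, 1654 to 3393 and 0 to 6, and called members over 0 to 1, 0 to 0, 0 to 1, 0 to 0 and 0 to 0. A lone KO bead library is then assumed to vary like the other groups. In all, 16 of these recomputed member differences changed sign. The ranges that cross 0 were -0.34 to 0.014 (Ikzf2), -0.36 to 0.093 (Runx3) and -0.92 to 0.13 (Cbfb) for KO against WT without beads, and -0.082 to 0.38 (Ikzf4), -0.46 to 0.84 (Runx1) and -0.52 to 0.81 (Cbfb) with beads. They were -0.011 to 1.29 (Runx1) and -0.063 to 0.89 (Foxp1) for beads in KO, -0.46 to 0.0067 (Foxp1) for beads in WT, and -0.22 to 1.11 (Cbfb) for the difference between responses. Depth is unknown, and its part in the spread of low genes such as Cbfb was not tested.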
